A study of Mus musculus with 2 samples.

Results

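The 50 genes described here encode components of transforming growth factor beta (TGF-beta) and bone morphogenetic protein (BMP) signalling, and they were taken by gene name from a table of 55323 rows. All 50 had a row. They were measured in TgS1 cells, a mouse Schwann cell line whose genotype the labels give as TTR V30M tg, that is, with a transgene of the V30M form of transthyretin (TTR), the protein that forms amyloid in hereditary transthyretin amyloidosis. One library came from cells cultured long-term in a medium labelled SCM, which the labels do not spell out, and 1 library from cells cultured long-term in the common basal medium DMEM, written S-DEMEM in the design text. The study set the media against each other as a model of the repair state of Schwann cells, and the labels do not say which medium gives that state. Both libraries carry the transgene and come from the same line. The labels name no promoter for the transgene, no clone and no number of cultures.

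Ligands of this family are secreted as dimers, and TGF-beta is kept latent in the matrix by latent TGF-beta binding proteins until it is activated. A ligand joins type II and type I receptor kinases, and the type I receptor phosphorylates receptor-regulated Smad proteins. TGF-beta and activin act mainly through Smad2 and Smad3, and BMPs through Smad1, Smad5 and Smad9, each with the common partner Smad4. The response includes its own inhibitors, among them Smad7 and SnoN (Skil), and BMP signals typically induce the Id genes. In cultured Schwann cells, the glia of peripheral nerve, TGF-beta is known to hold back myelin genes.

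The SCM library held 36666676 reads and the DMEM library 29085791, as recovered from the deposited values. Values are FPKM, fragments per kilobase of gene scaled to the reads assigned in each library, so levels of different genes can be compared within a library. With 1 library per medium there is no test between the media and no p-value, and the differences below have not been checked in a replicate. Ratios are FPKM in SCM over FPKM in DMEM with 95% exact (Clopper-Pearson) intervals of both read counts. The intervals cover counting error only, and with no molecular identifiers several reads can come from 1 molecule. In bulk RNA, fewer cells of a type and less RNA per cell cannot be told apart. All 10 Schwann cell marker genes of the marker list had at least 1 FPKM in 1 or both libraries, with Sox10, the lineage transcription factor, at 113 FPKM in SCM and 126 FPKM in DMEM. Of the markers of other cells, 0 of 6 endothelial, 0 of 6 neuronal, 1 of 6 macrophage, 1 of 8 fibroblast, 2 of 6 pericyte or muscle and 3 of 6 perineurial genes reached that level. The perineurial list summed to 48.4 FPKM in SCM and 34.6 FPKM in DMEM, with Cldn1, Krt19 and Ocln at 0 reads in both, and the pericyte or muscle list to 12.6 FPKM in SCM and 8.33 FPKM in DMEM. Past 2-fold among them were Itgb4 of the perineurial list, at 4.25 FPKM in SCM and 0.941 FPKM in DMEM, and Cspg4 of the pericyte list, at 1.84 FPKM in SCM and 0.314 FPKM in DMEM, and the part of these markers in the members' differences was not tested.

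Most of these signalling genes were expressed, and more of them were lower than higher in SCM. Of the 50 members, 36 reached 1 FPKM in 1 or both libraries and are called measured. Of these, 12 (33.3%) had a log2 ratio above 0 and 24 (66.7%) below 0, on the scale log2((FPKM in SCM + 1) / (FPKM in DMEM + 1)), which understates the ratio of low genes. Of all 12334 measured rows 45.8% were above 0 and 54.2% below 0. The median log2 ratio of the measured members was -0.19, and that of all measured rows was -0.03. At a limit of 2-fold on that scale 1 member (2.78%) was higher in SCM, the betaglycan gene Tgfbr3, and the share of all measured rows that were higher was 3.1%. The 4 members (11.1%) that were lower were Ltbp1, Id2, Id4 and Bmp1, against 2.8% of all measured rows. In either direction 5 members were past 2-fold, against 5.89% of all measured rows. Among protein-coding rows alone the shares were 2.48% higher and 1.44% lower, or 3.92% in either direction. The number of higher members was thus near the background, and that of lower members was above it in these 2 libraries. Members were chosen with earlier results of these data known, and the part of that choice in the difference was not tested. With a pseudocount of 3 FPKM, median scaling or trimmed-mean scaling, 3 members were lower, and the share of all rows under these settings was not taken.

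**Figure D1:**
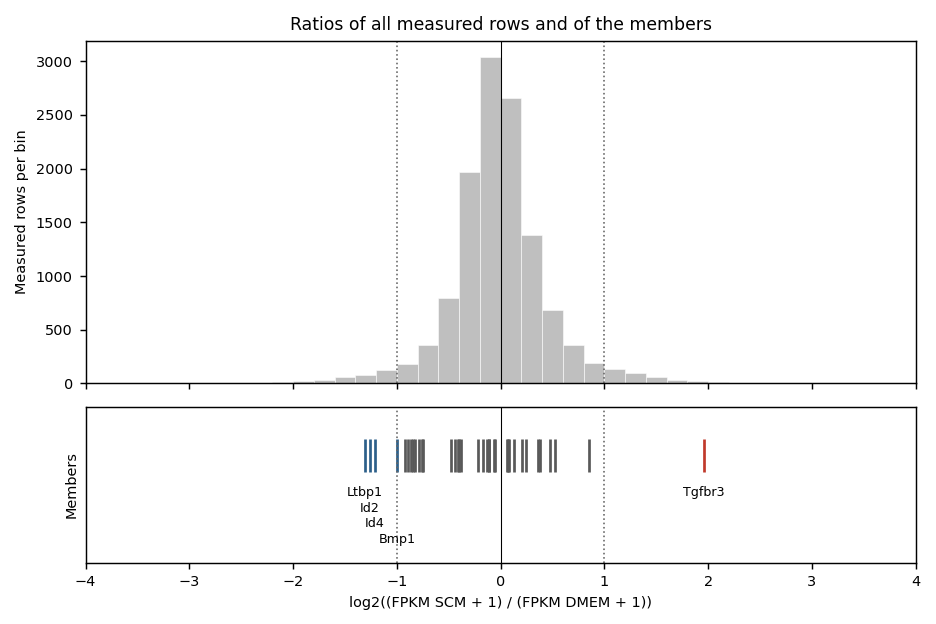
Upper panel, number of measured rows per bin of the log2 ratio of SCM over DMEM on the log2(FPKM + 1) scale, with rows beyond the axis placed in the outer bins. Lower panel, a tick for each of the 36 measured members, red where at least 2-fold higher in SCM, blue where at least 2-fold lower and grey between, with dotted lines at 2-fold; Tgfbr3 stands alone on the right at 1.96, and Ltbp1, Id2, Id4 and Bmp1 lie at or beyond the left line.

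The counting intervals gave a similar split. They lay above 1 for 11 of the 36 measured members, below 1 for 20, and held 1 for 5. Of all measured rows 29.2% had an interval above 1 and 36.3% below 1, and of protein-coding rows 31.4% above and 38.8% below, so intervals that exclude 1 are common between these deeply sequenced libraries. At 1.5-fold, 2 members were higher and 12 lower, while 7.9% of all measured rows were higher and 7.52% lower, and of protein-coding rows 6.44% higher and 4.99% lower. Just past the 2-fold limit stood Bmp1 at a log2 ratio of -1.001, and just short of it Smad7 at -0.93, Skil at -0.89, Bambi at -0.86, Fstl3 at 0.85 and Id1 at -0.85. In plain FPKM the genes Smad7, Skil, Bambi and Id1 were also more than 2-fold lower, which gave 8 lower members and 1 higher, beside 5.5% lower and 5.85% higher of all measured rows, and 2.64% lower and 4.1% higher of protein-coding rows.

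**Figure D2:**
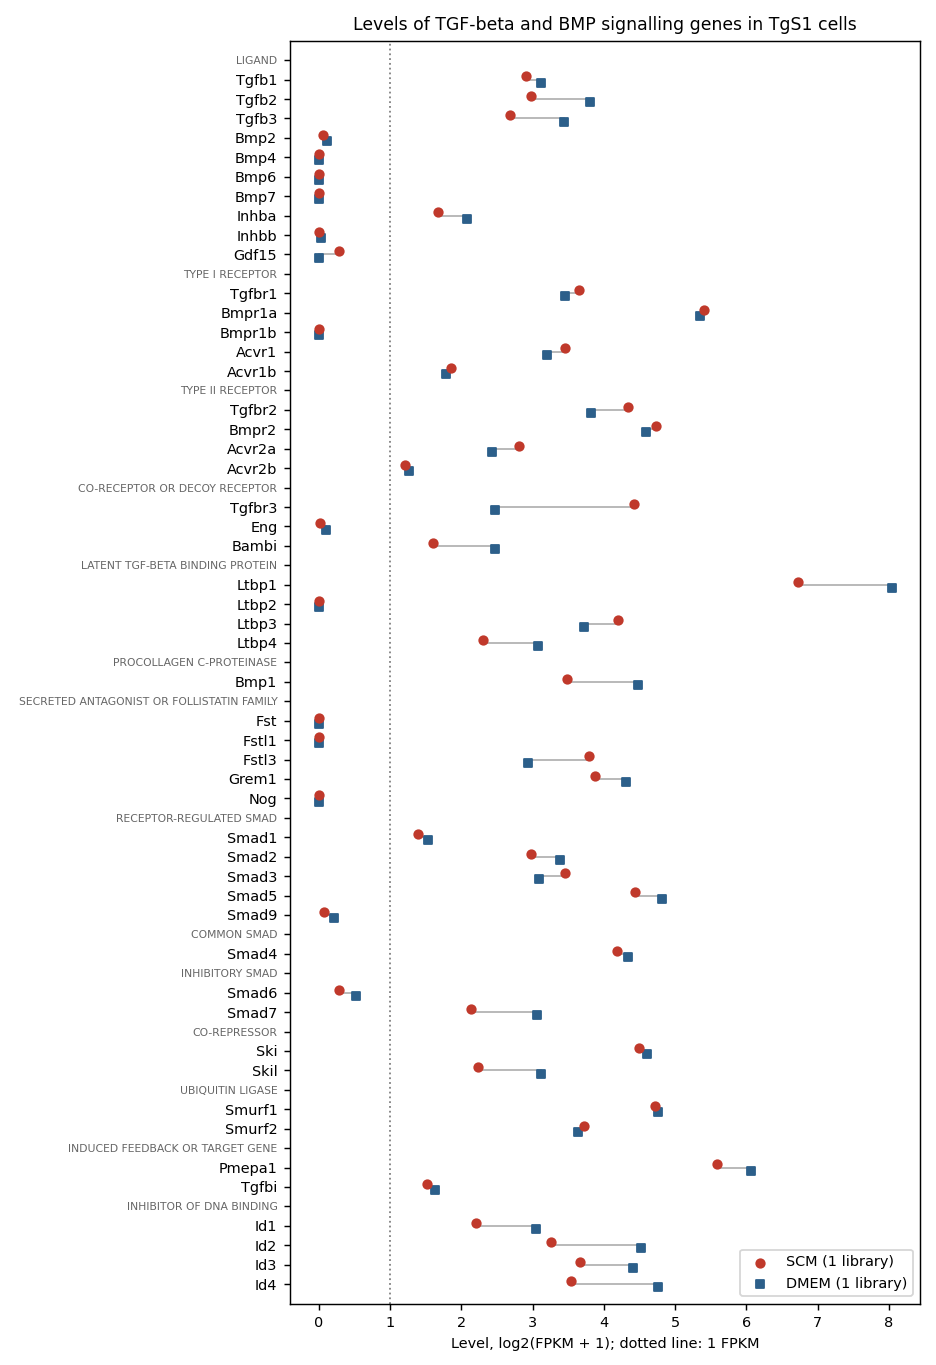
Level of each of the 50 members on the log2(FPKM + 1) scale, with red circles for the SCM library and blue squares for the DMEM library, grouped by role. Ltbp1 had the highest level in both libraries, at 105 FPKM in SCM and 262 FPKM in DMEM, and 14 members stayed left of the dotted line at 1 FPKM in both.

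Among the ligand genes, those of TGF-beta were expressed and those of BMPs were not detected above traces. Tgfb2 had 6.89 FPKM (1462 reads) in SCM and 13.0 FPKM (2185 reads) in DMEM, and was 1.88-fold lower in SCM (interval 1.76 to 2.01). Tgfb3 had 5.43 FPKM in SCM and 9.86 FPKM in DMEM, 1.81-fold lower (1.64 to 2.005). Tgfb1 had 6.47 FPKM in SCM and 7.71 FPKM in DMEM, 1.19-fold lower (1.10 to 1.29). All 3 TGF-beta genes were therefore lower in SCM, each by less than 2-fold, and Tgfb1 by the least. Tgfb2 ranked first of the 3 in both media. The order of the next pair by FPKM differed, with Tgfb1 above Tgfb3 in SCM and Tgfb3 above Tgfb1 in DMEM. By recovered reads Tgfb1 was above Tgfb3 in both media, with 1197 and 674 reads in SCM and 1131 and 970 in DMEM. That order therefore depends on scaling by length.

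Inhba, which encodes the chain of activin A, had 2.19 FPKM in SCM and 3.22 FPKM in DMEM and was 1.47-fold lower (1.31 to 1.66). The related chain gene Inhbb had 0 reads in SCM and 3 in DMEM. Bmp2 had 5 reads in SCM and 9 in DMEM, and Bmp4, Bmp6 and Bmp7 had 0 reads in both libraries. A count of 0 would allow, at 3 reads, up to 0.0364 FPKM of Bmp4 in SCM and 0.0459 FPKM in DMEM. Gdf15, a divergent family member known as a stress-induced cytokine, had 0.221 FPKM (15 reads) in SCM and 0 reads in DMEM. Set against the 3 reads that a count of 0 allows in DMEM, it was at least 3.97-fold higher in SCM, at a level under the 1 FPKM filter.

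Among the measured signalling receptor genes, levels differed widely from gene to gene and less between the media. All 8 measured type I and type II receptor genes were within 2-fold, 7 of them with a log2 ratio above 0, and their median was 0.17. Most measured rows were also within 2-fold, with 5.89% past it, and 45.8% of all measured rows had a log2 ratio above 0. Tgfbr2, the type II receptor of TGF-beta, had 19.3 FPKM (5794 reads) in SCM and 13.1 FPKM (3115 reads) in DMEM and was 1.48-fold higher (1.41 to 1.54). Its type I partner Tgfbr1 had 11.6 FPKM in SCM and 9.92 FPKM in DMEM, 1.17-fold higher (1.10 to 1.24). Both receptors of TGF-beta were thus above their DMEM level in the medium in which all 3 ligand genes were below theirs.

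The most abundant receptors were those of BMPs. Bmpr1a, a type I BMP receptor, had 41.6 FPKM in SCM and 39.9 FPKM in DMEM, a ratio of 1.04 (1.01 to 1.07) that fell just below 1 when both libraries were scaled to TPM. Bmpr2, the type II BMP receptor, had 25.5 FPKM in SCM and 23.2 FPKM in DMEM, a ratio of 1.10 (1.07 to 1.13). These ratios differ from 1 by little, and the narrow intervals reflect the 9677 and 16821 reads that the genes had in SCM. Acvr1, a type I receptor that takes BMP signals, had 9.95 FPKM in SCM and 8.24 FPKM in DMEM. The activin type II receptor gene Acvr2a had 6.01 FPKM in SCM and 4.38 FPKM in DMEM, 1.37-fold higher (1.25 to 1.51), and shares 446 bases of its exons with Orc4 on the other strand. The activin receptor genes Acvr1b, at 2.61 FPKM in SCM and 2.44 FPKM in DMEM, and Acvr2b, at 1.31 FPKM in SCM and 1.41 FPKM in DMEM, had intervals that held 1. Bmpr1b had 0 reads in both libraries.

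Among the accessory receptors Tgfbr3 and Bambi went opposite ways. Tgfbr3 encodes betaglycan, a co-receptor that presents TGF-beta, TGF-beta2 in particular, to the type II receptor. It had 20.5 FPKM (4910 reads) in SCM and 4.53 FPKM (863 reads) in DMEM, a 4.51-fold higher level (4.20 to 4.86), and its log2 ratio ranked 43 from the top among the 12334 measured rows. In SCM the Tgfbr3 level was about that of Tgfbr2, and in DMEM it was well under that of Tgfbr2. Bambi, a decoy receptor with no kinase, had 2.05 FPKM in SCM and 4.55 FPKM in DMEM, 2.21-fold lower (1.95 to 2.52). Eng, the endothelial co-receptor endoglin, had 2 reads in SCM and 9 in DMEM.

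**Figure D3:**
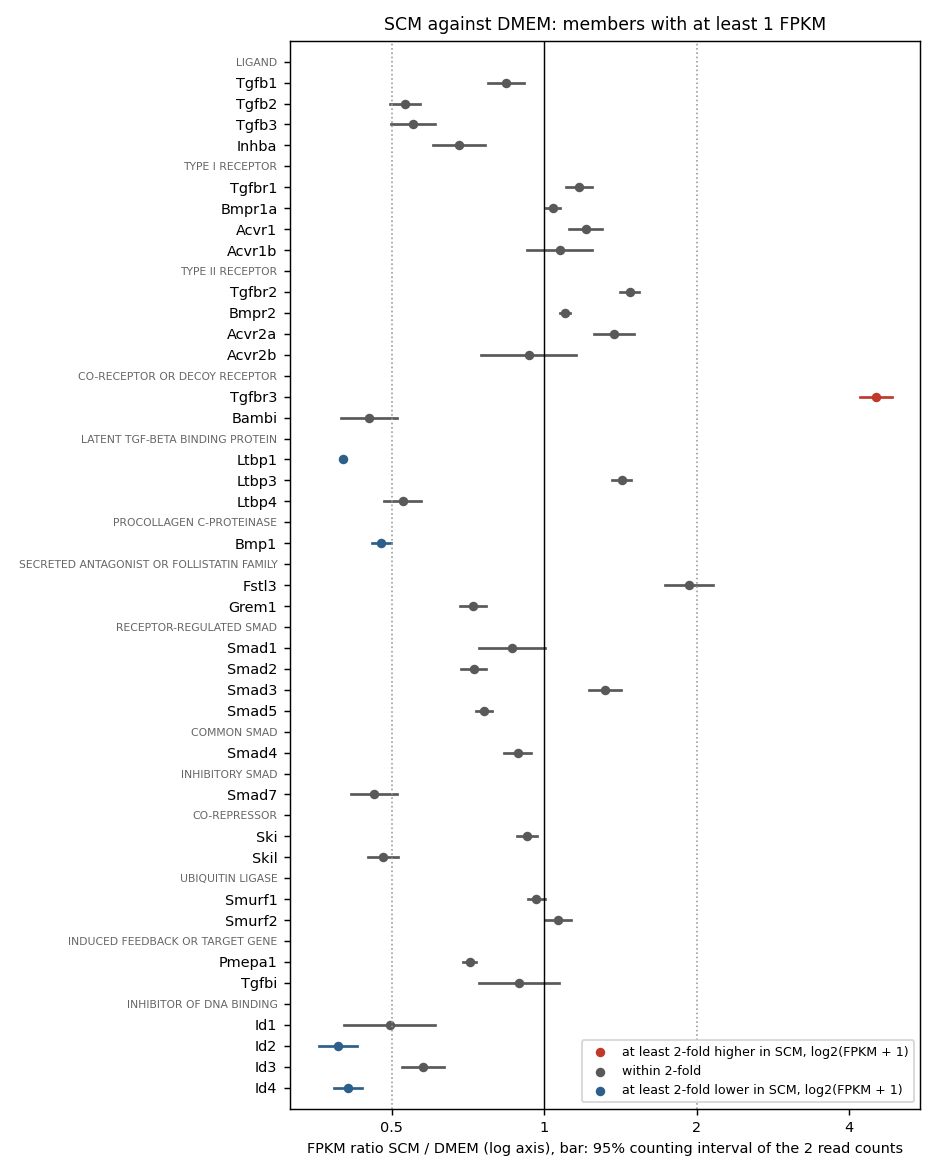
FPKM ratio of SCM over DMEM on a log axis for the 36 measured members, grouped by role, with bars for the 95% counting interval and dotted lines at 2-fold. Red marks the member at least 2-fold higher and blue the 4 at least 2-fold lower on the log2(FPKM + 1) scale; the type I and type II receptor genes lie near or right of 1, and the ligand and Id genes left of it.

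Ltbp1 was the most abundant member and one of those past 2-fold. It encodes a matrix glycoprotein that binds the latent TGF-beta complex. Ltbp1 had 105 FPKM (41173 reads) in SCM and 262 FPKM (81472 reads) in DMEM, 2.49-fold lower in SCM (2.47 to 2.52), and ranked 258 among all rows by level in SCM and 78 in DMEM. Its relative Ltbp4 had 3.92 FPKM in SCM and 7.47 FPKM in DMEM, 1.90-fold lower (1.75 to 2.07). Ltbp3 had 17.4 FPKM in SCM and 12.2 FPKM in DMEM, a 1.42-fold higher level (1.36 to 1.49), and shares exon bases with another row. The measured members of this small family therefore did not go the same way. Ltbp2 had 1 read in SCM and 0 in DMEM.

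RefSeq lists 2 start sites for Ltbp1 on GRCm38.p6, and the table gives the gene as 1 row, so their shares are not separated. The 250 bases before each start are shown because either start could feed the row with the highest member level, first the upstream start (chr17:75005279-75005528, plus strand) and then the downstream one (chr17:75178531-75178780, plus strand). Capitals mark CAGAC, a Smad-binding box, read on either strand (GTCTG on the printed one).
Ltbp1 upstream start: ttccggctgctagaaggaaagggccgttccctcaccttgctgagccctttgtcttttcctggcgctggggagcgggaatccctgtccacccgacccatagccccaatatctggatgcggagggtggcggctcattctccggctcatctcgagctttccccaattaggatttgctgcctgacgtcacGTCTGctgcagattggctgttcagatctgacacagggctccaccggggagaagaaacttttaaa
Ltbp1 downstream start: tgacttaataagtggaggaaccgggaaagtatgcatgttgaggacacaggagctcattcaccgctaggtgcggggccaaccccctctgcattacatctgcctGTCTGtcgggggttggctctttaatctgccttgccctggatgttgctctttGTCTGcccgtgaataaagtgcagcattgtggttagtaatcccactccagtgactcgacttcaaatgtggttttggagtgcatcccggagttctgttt
The box occurs once before the upstream start and at 2 places before the downstream one. The RefSeq windows searched are 300 bases long, with 250 before the start. Of 32851 such windows 42.2% hold the box on either strand, as do 22 of the 45 windows listed for 36 of the members (48.9%). Its presence therefore does not set the Ltbp1 windows apart.

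Genes of secreted modulators differed in both directions. Bmp1, a procollagen C-proteinase that also cleaves the BMP antagonist chordin and is not a family ligand despite its name, had 10.2 FPKM (3304 reads) in SCM and 21.3 FPKM (5503 reads) in DMEM, 2.10-fold lower (2.01 to 2.19). It lay at the limit and was within 2-fold when the median log2 ratio of all rows was set to 0. Fstl3, a follistatin-like protein that binds activin, had 12.9 FPKM (1155 reads) in SCM and 6.68 FPKM (475 reads) in DMEM, 1.93-fold higher (1.73 to 2.15). The BMP antagonist gene Grem1 (gremlin) had 13.6 FPKM in SCM and 18.9 FPKM in DMEM, 1.38-fold lower (1.30 to 1.47). Fstl3 and Grem1 were the antagonist genes among the members that reached 1 FPKM. Fst, Fstl1 and Nog, which encode follistatin, follistatin-like 1 and the BMP antagonist noggin, had 0 reads in both libraries, which for Nog allows up to 0.0483 FPKM in SCM and 0.0609 FPKM in DMEM.

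Like most measured rows, of which 5.89% were past 2-fold, the measured Smad genes that carry the signal were within it. Smad5, which carries BMP signals, was the most abundant of them, with 20.6 FPKM in SCM and 27.2 FPKM in DMEM, 1.32-fold lower (1.27 to 1.37). Smad1 had 1.64 FPKM in SCM and 1.89 FPKM in DMEM, with an interval that held 1, and Smad9 had 11 reads in SCM and 25 in DMEM. Smad2 and Smad3, which carry TGF-beta and activin signals, went opposite ways. Smad3 had 9.94 FPKM (2020 reads) in SCM and 7.53 FPKM (1214 reads) in DMEM, 1.32-fold higher (1.23 to 1.42). Smad2 had 6.88 FPKM (2214 reads) in SCM and 9.48 FPKM (2422 reads) in DMEM, 1.38-fold lower (1.30 to 1.46). By FPKM, Smad3 thus stood above Smad2 in SCM and below it in DMEM. By recovered reads Smad2 was above Smad3 in both media, so that order depends on scaling by length. The common Smad gene Smad4 had 17.1 FPKM in SCM and 19.3 FPKM in DMEM, 1.13-fold lower (1.06 to 1.20).

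No negative regulator among the members was past 2-fold on the log2(FPKM + 1) scale, and 5.89% of all measured rows were. Smad7, the inhibitory Smad of the pathway, had 3.40 FPKM (563 reads) in SCM and 7.35 FPKM (967 reads) in DMEM, 2.17-fold lower (1.95 to 2.41). Skil, which encodes the Smad co-repressor SnoN, had 3.70 FPKM in SCM and 7.71 FPKM in DMEM, 2.08-fold lower (1.94 to 2.23). Both were past 2-fold in plain FPKM and within it on the log2(FPKM + 1) scale. Pmepa1, a membrane protein gene that limits Smad activation, was the second most abundant member in both media, with 47.1 FPKM in SCM and 66.1 FPKM in DMEM, 1.40-fold lower (1.36 to 1.45). Smad6, the inhibitory Smad that acts mainly on BMP signals, had 25 reads in SCM and 41 in DMEM.

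Ski, a co-repressor related to Skil, had 21.6 FPKM in SCM and 23.4 FPKM in DMEM, 1.08-fold lower (1.03 to 1.13). The ligases Smurf1 and Smurf2 mark receptors and Smads for degradation. Smurf1 had 25.3 FPKM in SCM and 26.2 FPKM in DMEM with an interval that held 1, and Smurf2 had 12.2 FPKM in SCM and 11.5 FPKM in DMEM, a ratio of 1.06 (1.01 to 1.13). Tgfbi, a matrix protein gene named for its induction by TGF-beta, had 1.86 FPKM in SCM and 2.09 FPKM in DMEM, with an interval that held 1. The Tgfbi counts thus do not separate the media.

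All 4 Id genes, which encode helix-loop-helix proteins that block DNA binding of their partners, were lower in SCM. Id2 had 8.56 FPKM (765 reads) in SCM and 21.9 FPKM (1550 reads) in DMEM, 2.55-fold lower (2.34 to 2.79). Id4 had 10.7 FPKM (1505 reads) in SCM and 26.0 FPKM (2910 reads) in DMEM, 2.44-fold lower (2.29 to 2.60). Both Id2 and Id4 were past 2-fold, the other two were within it on the log2(FPKM + 1) scale. Id1 had 3.60 FPKM (153 reads) in SCM and 7.26 FPKM (245 reads) in DMEM, 2.02-fold lower (1.64 to 2.49). Id3 had 11.6 FPKM (764 reads) in SCM and 20.2 FPKM (1051 reads) in DMEM, 1.73-fold lower (1.58 to 1.91). The summed level of the Id genes was 34.5 FPKM in SCM and 75.3 FPKM in DMEM, 2.19-fold lower.

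Sequence before the RefSeq starts of Id2, Id3 and Id4 (GRCm38.p6) is shown because BMP-responsive Id promoters are known for GC-rich Smad elements. Capitals mark GGCGCC, a GC-rich element that reads alike on both strands, or CAGAC on either strand; these motifs share no overlap in the printed stretches. For Id4 the 250 bases before the start are given (chr13:48260866-48261115, plus strand), and for Id2 (chr12:25096306-25096335, minus strand) and Id3 (chr4:136143642-136143671 and chr4:136143741-136143770, plus strand) the 30 bases around each match, since GENCODE annotates exon bases in 161 and 250 of the 250 bases before their starts.
Id4: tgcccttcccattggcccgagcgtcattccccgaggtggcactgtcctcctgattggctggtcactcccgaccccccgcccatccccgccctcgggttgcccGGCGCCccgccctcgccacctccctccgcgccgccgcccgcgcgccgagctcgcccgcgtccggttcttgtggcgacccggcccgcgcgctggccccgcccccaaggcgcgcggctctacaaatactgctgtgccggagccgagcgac
Id2: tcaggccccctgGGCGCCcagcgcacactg
Id3 distal match: ctgtcctcggcgtCAGACcagcctaaggaa
Id3 proximal match: tggacccttggcgGTCTGttttgaataagg
GGCGCC begins 148 bases before the start of Id4 and 231 bases before that of Id2, and it is not among the 250 bases before Id3. It was in 13 of the 45 windows listed for the members (28.9%), in 9.59% of all windows and in 17.4% of those of measured protein-coding genes. The windows differ in base composition, and a match is no sign of binding. The palindrome GTCTAGAC was in 0 of the 45 windows and in 0.167% of all windows.

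The gene with the largest share of its group was mostly the same in both media, while the shares of some members differed. Bmpr1a made up 63.2% of the summed FPKM of type I receptor genes in SCM and 66.0% in DMEM, and Bmpr2 48.9% of that of type II receptor genes in SCM and 55.2% in DMEM. Smad5 held 52.7% of the receptor-regulated Smad sum in SCM and 58.8% in DMEM, and Smad3 25.4% in SCM and 16.3% in DMEM. Ltbp1 held 83.1% of the sum of its family in SCM and 93.0% in DMEM, while Ltbp3 held 13.8% in SCM and 4.35% in DMEM. The leading gene did not differ between the media in 5 of 6 groups, the TGF-beta ligands with Tgfb2 included. Among the Id genes Id3 led in SCM with 33.8%, and Id4 led in DMEM with 34.5%. By recovered reads, which weigh long genes more, Id4 led in both media, so that order depends on scaling by length.

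**Figure D4:**
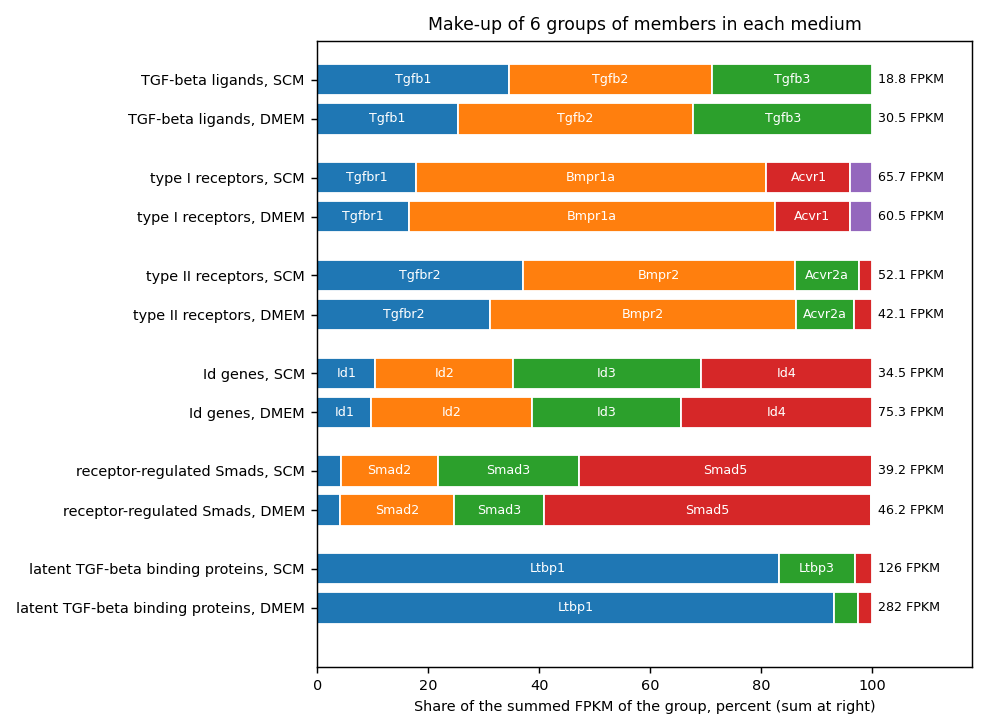
Share of the summed FPKM taken by each member in 6 groups, as percent along the horizontal axis, with the SCM bar above the DMEM bar and the sum in FPKM at the right; the unlabelled segments are Acvr1b, Acvr2b, Smad1, Ltbp4 and, in the DMEM bar, Ltbp3. The Id sum was 34.5 FPKM in SCM and 75.3 FPKM in DMEM, and the sum of the latent TGF-beta binding protein genes 126 FPKM in SCM and 282 FPKM in DMEM.

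Pathway genes outside the 50 were taken from 6 lists of other ligands, receptors, modulators, intracellular factors and known target genes. Of 145 such genes with a row, 69 were measured. At 2-fold, 2 of these (2.90%) were higher in SCM and 3 (4.35%) lower, and the median log2 ratio of the 69 was -0.05. Among all measured rows 3.1% were higher and 2.8% lower, 45.8% had a log2 ratio above 0, and the median was -0.03. Of the other ligands 1 of 23 was measured, Gdf11, with 68.3 FPKM in SCM and 49.3 FPKM in DMEM, 1.38-fold higher (1.34 to 1.43). Its level was above that of any ligand among the members in both media. Of 5 measured receptor and co-receptor genes 0 were past 2-fold on the log2(FPKM + 1) scale. Cd109, a TGF-beta co-receptor gene, had 81.4 FPKM in SCM and 88.3 FPKM in DMEM, and Neo1, which encodes the neogenin receptor, had 16.3 FPKM in SCM and 17.8 FPKM in DMEM. Vasn, which encodes a membrane protein that binds TGF-beta and was named after its values were seen, was nearest to the limit, with a log2 ratio of -0.97. It had 5.10 FPKM in SCM and 11.0 FPKM in DMEM, 2.15-fold lower in plain FPKM. Vasn shares exon bases with Dnaja3 on the same strand. Of the 5 measured genes of this list 1 had a log2 ratio above 0 and 4 below 0. The higher one was Rgma, also named after its values were seen, with 6.80 FPKM in SCM and 4.15 FPKM in DMEM, 1.64-fold higher (1.49 to 1.80).

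Of 9 measured antagonists and activators 1 was higher and 1 lower. Pcsk6, a proprotein convertase that processes family precursors, had 2.31 FPKM (439 reads) in SCM and 0.457 FPKM (69 reads) in DMEM, 5.05-fold higher (3.91 to 6.60). Tll1, a protease of the Bmp1 family, had 1.22 FPKM (346 reads) in SCM and 5.42 FPKM (1222 reads) in DMEM, 4.45-fold lower (3.95 to 5.03), the same direction as Bmp1. Itgb8, the beta chain of an integrin that activates latent TGF-beta, had 27.9 FPKM in SCM and 15.9 FPKM in DMEM, 1.75-fold higher (1.70 to 1.81), and was named after its values were seen. Of 33 measured intracellular factors 0 were past 2-fold on the log2(FPKM + 1) scale, with a median of -0.05. In plain FPKM 1 was, Ctdspl, a phosphatase gene named after its values were seen, with 3.16 FPKM in SCM and 1.27 FPKM in DMEM, 2.49-fold higher (2.11 to 2.94). The most abundant intracellular factors were Usp9x, a deubiquitinase gene at 93.7 FPKM in SCM and 87.7 FPKM in DMEM, and Zeb2, a Smad-binding repressor gene at 71.4 FPKM in SCM and 59.7 FPKM in DMEM.

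Genes known to be induced by TGF-beta in other cells were mixed. Of 14 measured, 1 was higher, 2 were lower and 8 had a log2 ratio above 0, with a median of 0.07, and the intervals lay above 1 for 7 and below 1 for 4. Snai2, a neural crest transcription factor gene, had 35.7 FPKM in SCM and 110.3 FPKM in DMEM, 3.09-fold lower (2.95 to 3.23). The matrix gene Postn had 44.6 FPKM in SCM and 119 FPKM in DMEM, 2.67-fold lower (2.62 to 2.73). The collagen gene Col1a2 went the other way, with 3.15 FPKM in SCM and 0.742 FPKM in DMEM, 4.24-fold higher (3.72 to 4.85). Col1a2 is also a fibroblast marker. The 8 genes of that marker list summed to 3.23 FPKM in SCM and 0.927 FPKM in DMEM, with Col1a1, Lum and Dpt at 0 reads in both, and their part in the result was not tested.

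Of 7 measured BMP-induced genes outside the Id family 0 were past 2-fold on the log2(FPKM + 1) scale, 4 had a log2 ratio above 0, and the median was 0.00. Their intervals lay above 1 for 3 and below 1 for 2. Runx2, a transcription factor gene and the most abundant of them, had 50.7 FPKM in SCM and 63.0 FPKM in DMEM, and shares exon bases with the antisense row Runx2os1. Tbx2, a T-box factor gene, had 6.33 FPKM in SCM and 6.31 FPKM in DMEM. Hey1 and Hes1, genes of transcriptional repressors named after their values were seen, went the opposite way to the Id genes. Hey1 had 1.38 FPKM (165 reads) in SCM and 0.484 FPKM (46 reads) in DMEM, 2.85-fold higher in plain FPKM (2.04 to 4.04), and Hes1 had 3.68 FPKM in SCM and 1.92 FPKM in DMEM, 1.91-fold higher (1.53 to 2.40). Atoh8 of the same list, also named after its values were seen, went the way of the Id genes. It had 1.43 FPKM in SCM and 2.65 FPKM in DMEM, 1.86-fold lower (1.48 to 2.34).

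**Figure D5:**
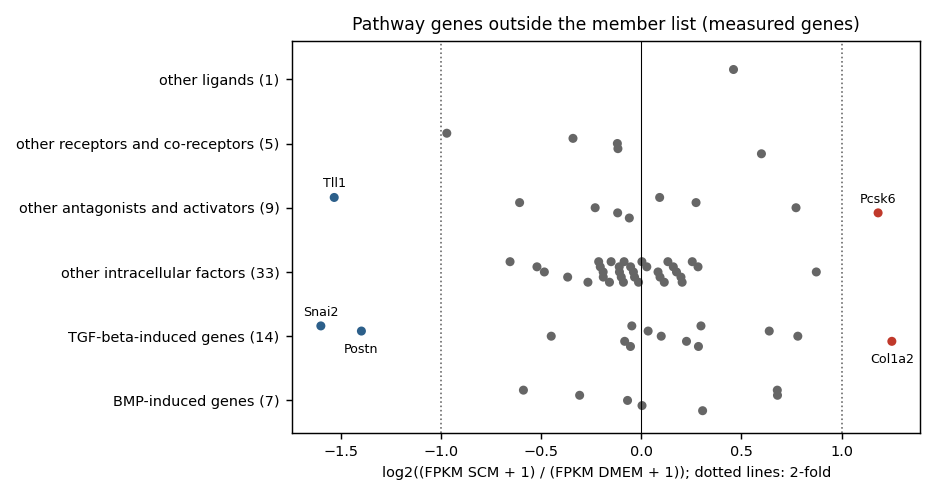
Log2 ratio of SCM over DMEM on the log2(FPKM + 1) scale for measured pathway genes outside the members, 1 point per gene, by list with the number of measured genes in brackets and dotted lines at 2-fold. Snai2, Postn and Tll1 lie left of the lines and Col1a2 and Pcsk6 right of them, and all 33 intracellular factors lie between.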

How the data were processed

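Libraries of TgS1 total RNA were prepared with a stranded SMARTer kit, followed by an MGIEasy conversion for DNBSEQ, per the labels' protocols. STAR 2.7.9a, featureCounts 2.0.1, cutadapt 3.1, Trimmomatic 0.39 and Trim Galore are named in the submitters' processing notes, with the builds GRCm38.p6 and mm10. Their settings, the strand setting included, were not given in the sources used. The deposited table gives FPKM per gene for 1 SCM and 1 DMEM library, per the file headers. FPKM times length in kilobases was a whole multiple of 1 step in 100% of rows (within 0.01 read), which gave the reads. No count model was fitted, since each medium has 1 library. Groups came from sample titles, and columns were matched by the medium's name; the column names carry the numbers 3 (SCM) and 1 (DMEM), whose meaning is not given, and any libraries with other numbers were not analysed here.

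Ratios used a pseudocount of 1 FPKM, a filter of 1 FPKM in 1 or both libraries and a limit of 2-fold. The floor for a count of 0 was 3 reads. Members past 2-fold, those with at least 10 FPKM and the rest of their role groups were described singly. From the other lists, genes past 2-fold and otherwise the highest were named. Members and lists were chosen with earlier results of these data known, and 1 listed target gene is not reported here. Positions in the table served only to find shared exon bases. RefSeq promoter windows (GRCm38.p6) were matched by symbol, and 36 of 50 members had one. Steps were tested on simulated reads. Python 3.11.15, numpy 2.4.6, pandas 2.3.3, scipy 1.17.1 and matplotlib 3.10.9 were used. Alternatives changed the pseudocount, filter, scaling, unit, fold limit and summary.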

Additional observations from a re-analysis of the deposited data

How the results depend on the processing

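No paired analysis was possible because each medium has 1 library. The 5 members past 2-fold (1 higher, 4 lower) became 8 with a pseudocount of 0.1 FPKM, 9 on TPM, 9 in plain FPKM ratios and 14 at 1.5-fold. Tgfbr3 was the higher member under the pseudocounts, scalings and TPM, and the numbers with a pseudocount of 3 FPKM, median scaling and trimmed-mean scaling were 4 each. The number was 5 with the other filters, with an interval that excludes 1, and without the 2 members that share exon bases with another measured row, a setting chosen after seeing the data. For the other pseudocounts, filters, scalings and TPM the share of all rows past 2-fold was not taken. The member numbers under those settings therefore have no background to be read against. The median log2 ratio of the members, -0.19, was -0.13 with no filter other than 1 read, -0.30 at a filter of 5 FPKM and -0.30 on TPM, and their mean was -0.25. Other pathway genes past 2-fold numbered 5, and 8 with a pseudocount of 0.1 FPKM, 2 with one of 3 FPKM, 3 at a filter of 5 FPKM, 10 on TPM and 16 at 1.5-fold. On TPM 1 of 36 measured members, Bmpr1a, changed sign, and 0 did under the other 4 settings of pseudocount and scaling. Depth limits members under 1 FPKM, which rest on at most 41 reads per library.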
